A study of Homo sapiens with 5 samples.

Results

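The introns described here are 81 to 2000 bp long and were kept in at least 20% of the RNA in both control libraries of DLD-1 cells, before any splicing factor was lowered. They were chosen from the introns that overlap no other annotated feature, that were listed in both the SNW1 RNAi and the WBP11 auxin comparison, and that had an intron depth plus spliced reads of at least 10 in all 4 libraries. The rule found 294 introns in 233 genes, out of 34560 distinct introns in the 3 tables. Of 9832 introns that met every condition except retention, 6465 were retained at under 5% in both controls, and these well-spliced introns serve as the comparison set.

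DLD-1 is a human colorectal adenocarcinoma line, and polyA RNA of 5 groups was sequenced with 1 library each. DLD-1 LacZeo cells received 100 nM SNW1 siRNA for 72 h, 100 nM WBP11 siRNA for 72 h, or no treatment per the labels, and the file headers name that shared control a control RNAi. DLD-1 LacZeo osTIR1 cells, which carry the plant receptor that marks tagged proteins for degradation in the presence of auxin, were given 500 µM auxin for 48 h in both remaining groups. In the WBP11 auxin group the endogenous WBP11 gene was knocked out and replaced by a degron-tagged transgene, per the series' design text, and the auxin control differs from it in that line as well as in WBP11 loss. The degron line was not compared with itself in the absence of auxin, and the labels do not say how many clones the line came from.

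An intron that stays in a polyadenylated transcript usually holds the RNA in the nucleus or brings in a premature stop codon that leads to decay, and many mammalian genes keep a few such introns in ordinary growth as a means of setting how much protein they make. SNW1, also called SKIP, is a subunit of the activated and catalytic spliceosome, and WBP11 is a proline-rich protein of the spliceosome that also binds a protein phosphatase. Retained introns tend to be short and GC-rich and to lie between weak splice sites.

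The sequences of introns on which the results turn were read from annotated transcripts that keep them (GENCODE release 29, GRCh38, the build of the coordinates), on the strand of the gene. Capitals mark the first and last pair of bases, which the spliceosome cuts. SGSM3 rose most after WBP11 auxin among introns with at least 50 reads, EDC4 fell after WBP11 RNAi, and ACADVL intron 8 starts with GC in place of GT, so these short introns are shown whole.
SGSM3 intron 12, chr22:40407329-40407412, plus strand: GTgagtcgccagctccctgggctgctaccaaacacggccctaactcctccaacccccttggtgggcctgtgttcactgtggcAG
EDC4 intron 22, chr16:67881846-67881953, plus strand: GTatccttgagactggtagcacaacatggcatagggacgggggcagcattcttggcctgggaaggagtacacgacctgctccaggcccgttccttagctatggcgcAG
ACADVL intron 8, chr17:7222082-7222176, plus strand: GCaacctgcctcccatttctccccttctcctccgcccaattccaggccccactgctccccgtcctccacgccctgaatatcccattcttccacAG
The SGSM3 and EDC4 introns are multiples of 3 in length and hold no stop codon in the reading frame, whereas the ACADVL intron holds one.

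The following donor windows, 10 exon bases and 20 intron bases, set introns that rose in every depleted library beside introns that fell or did not move.
TUBGCP6 intron 18, chr22:50219457-50219643, minus strand: gagtccatgtGTgagtgcagcagttgctgt
MAN2C1 intron 16, chr15:75359426-75359619, minus strand: cacagcctagGTacgagctgaggggaaggg
CENPT intron 11, chr16:67830089-67830389, minus strand: cagaagaataGTgagtgtgtggcactggtg
PIP4P1 intron 2, chr14:20460299-20460654, minus strand: tgaagccaccGTgagttacacatatctatg
TARBP2 intron 4, chr12:53503809-53504396, plus strand: tcctaaccagGTatctgtgtcccctgactg
CRACR2B, chr11:830714-830865, plus strand: gcagcgggagGTgagcacccggcccctgcc
TAF1C intron 11, chr16:84180345-84181042, minus strand: ctgtacccagGTgagtggcacacaacaccg
TAF1C intron 7, chr16:84182059-84182201, minus strand: gacaggctgcGTatcctttcttgcgagaca
The first 3 belong to introns that rose, the next pair to introns within 10 points of control everywhere, and the last 3 to introns that fell after WBP11 auxin. For CENPT the rise after WBP11 auxin was 10.4 points by the deposited ratio and 8.92 points with the listed spliced reads, which is under 10. The letters GTATCCTT, typical of the donor of minor-spliceosome introns, were searched for at the first bases of the intron on its own strand. They opened 2 of 162 introns with a sequence, EDC4 intron 22 and TAF1C intron 7 (1.23%). In the comparison set they opened 0 of the 687 introns with a sequence, out of 6465. The related letters ATATCCTT opened 0 of 162 and 0 of 687.

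In annotation, 162 of the 294 introns (55.1%) lay inside a transcript that GENCODE records as retaining an intron, against 684 of 6465 in the comparison set (10.6%). The gap was present in each length class, with 65.6% against 15.1% at 81 to 150 bp, 58.8% against 12.0% above 150 and up to 500 bp, and 40% against 5.70% above 500 bp. The median length was 321 bp against 312 bp in the comparison set, and the quartiles were 174 and 534 bp against 125 and 791 bp, so that the retained introns held fewer of the shortest and of the longest. The exons on either side were richer in GC over the 50 bases next to the intron, with a median of 60% against 55%. The upstream exon ended in AG, the consensus at this place, in 40.8% against 50.6%. These are descriptions of 2 sets of introns that can share genes, and no test was made of them.

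**Figure D1:**
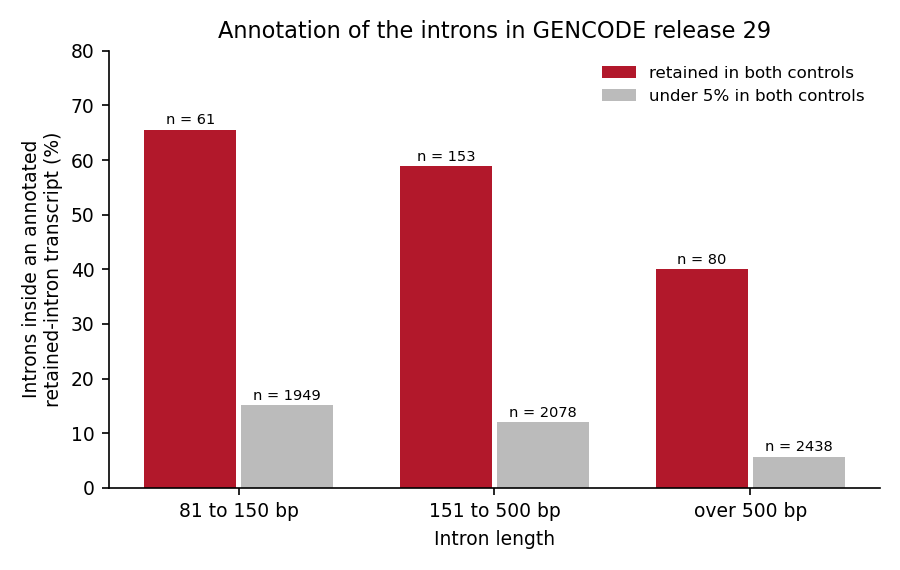
Share of introns that lie inside a GENCODE release 29 retained-intron transcript (vertical axis, percent) by intron length (horizontal axis), for introns retained in both controls (red) and for introns under 5% in both controls (grey). The red bars stand at 65.6%, 58.8% and 40% and the grey bars at 15.1%, 12.0% and 5.70%.

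Most of the retained introns lay in coding sequence, 285 of 294 (96.9%), against 98.2% of the comparison set. Last introns were 5.10% of them, against 12.1%, and first introns 5.44%, against 3.29%. Their length was a multiple of 3 in 33.3%, against 34.0%. A stop codon stood in frame in 135 of the 158 retained introns that could be read (85.4%), against 564 of 680 (82.9%). Sequence could be read only from an annotated transcript that keeps the intron, for 55.1% of the retained introns and 10.6% of the comparison set. The share of lengths that are a multiple of 3 therefore differed by little between the sets. Stop codons differed by little between the introns that could be read, which are a small and annotated part of the comparison set. Of the 162 introns with a sequence, 159 began with GT and ended with AG, 2 began with GC (ACADVL and P4HTM), and 1 in USP21, a deubiquitinase, read AT at its start and AG at its end in the annotated transcript.

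The libraries behind the ratios were similar in depth at these introns. The median of intron depth plus spliced reads was 85.2 after SNW1 RNAi, 73.0 after WBP11 RNAi and 106 in the control, and 93.3 in WBP11 auxin cells and 95.4 in the auxin control. IRFinder warnings, mostly of uneven coverage or of other spliced forms, stood on 91, 104, 57, 92 and 60 of the introns in the same order. Spliced reads of SNW1 fell to 10.2% of control after SNW1 RNAi and those of WBP11 to 6.75% after WBP11 RNAi, relative to all listed spliced reads, while the 1 listed WBP11 intron stood at 38.04% in the auxin pair, where the protein is the target. Introns of 6 of 12 colon epithelial genes were listed in each table, CDH1, CLDN7, ELF3, KRT18 and KRT19 among them, of 0 of 8 fibroblast genes, and of 1 of 8 leukocyte genes, CD68, in the RNAi tables only. Spliced reads of the 6 listed colon genes summed to 86208 after SNW1 RNAi against 291012 in the control, to 43661 after WBP11 RNAi against 53004, and to 19873 in WBP11 auxin cells against 30128 in the auxin control. The RNAi sums share 1 control library and differ there because each comparison listed other introns. KRT8 was listed for SNW1 RNAi only and CEACAM5 for WBP11 RNAi only. The sums are not scaled to the reads of each library, so they are not marker levels. What part the differences between depleted and control sums have in retention was not tested.

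Each value below is the deposited retention ratio, the intron depth divided by that depth plus the spliced reads, given in percent. A change is the depleted library minus its control in percentage points, and an intron "rose" or "fell" when it moved by at least 10 points. Brackets of 95% are Newcombe intervals that cover counting error in these libraries only, because no group had a second library. They take intron depth as if it were a count of reads, although it is a coverage signal, so their width is approximate. A limit of at least 50 reads means an intron depth plus spliced reads of at least 50. Both control values chose the introns, and each control also enters the change, so the changes describe the introns and nothing was tested with them. Named introns lie in coding sequence unless another place is given.

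Retention was highest after SNW1 RNAi. The median over the introns was 58.3% after SNW1 RNAi and 43.8% after WBP11 RNAi (266 introns measured), against 29.7% in the control. It was 45.5% in WBP11 auxin cells, against 35.3% in the auxin control. Retention reached 50% in 186 introns after SNW1 RNAi and in 101 after WBP11 RNAi, against 38 in the control, and in 127 in WBP11 auxin cells, against 53 in the auxin control. At the other end, 10 introns after SNW1 RNAi, 34 after WBP11 RNAi and 35 in WBP11 auxin cells were below the 20% that every intron reached in the controls. The choice of introns left none below 20% in the controls, so these counts do not show a downward spread against the controls. Among the depleted libraries, introns below 20% were more frequent in either WBP11 library than after SNW1 RNAi.

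**Figure D2:**
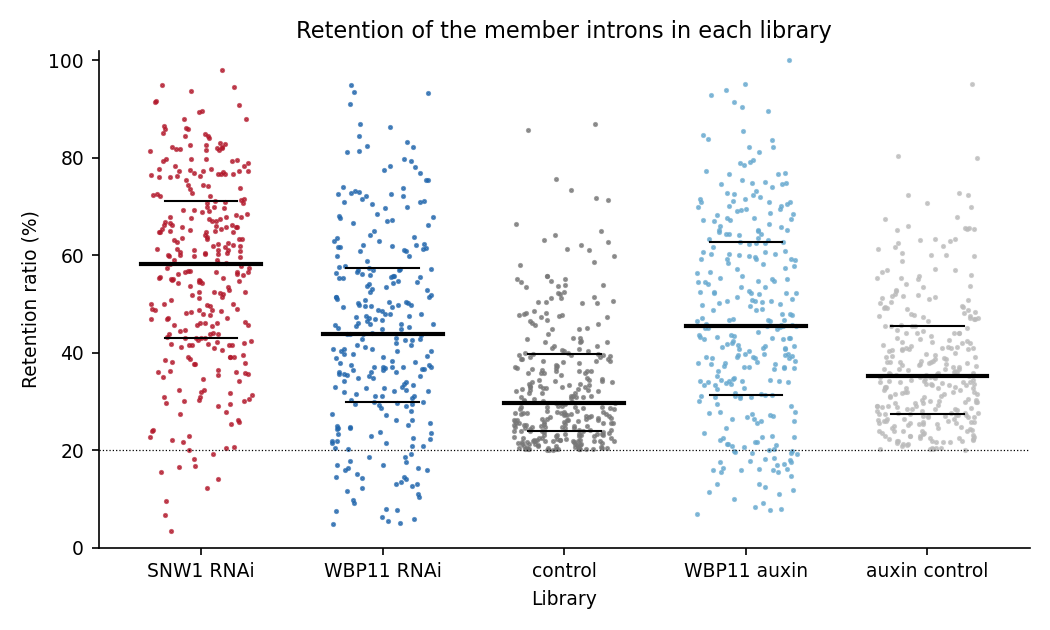
Retention ratio in percent (vertical axis) of each intron, 1 point an intron, in the 5 libraries (horizontal axis), with the thick line at the median, thin lines at the quartiles and the dotted line at the 20% that chose the introns in the controls. The median is 58.3% after SNW1 RNAi, 43.8% after WBP11 RNAi and 29.7% in the control. It is 45.5% in WBP11 auxin cells and 35.3% in the auxin control. Points below the dotted line can occur in the depleted libraries only, because the introns were chosen at 20% or more in both controls.

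After SNW1 RNAi, 228 of 294 introns rose and 9 fell, which is 77.6% and 3.06%, beside 16.6% and 0.359% of all 23366 introns measured in that comparison. The median change was 22.9 points, from a lowest of -19.5 to a highest of 66.6. It was 2.63 points over all introns and 2.62 points in the comparison set, where 8.35% rose. These sets start from different values. Median retention went from 29.7% to 58.3% in the retained introns and from 0.913% to 3.70% in the comparison set. The control median over all introns was 1.24%. A rise in points from such low values is not the same as one from 29.7%. The shares and medians therefore do not rank the sets by sensitivity, which was not tested. Among the retained introns, the interval lay on one side of 0 for 198 of the rises and 3 of the falls. Introns of 81 to 150 bp rose in 75.4%, those above 150 and up to 500 bp in 84.3% and those above 500 bp in 66.3%. The share that rose was 74.6% at a smaller control value of 20 to 30%, 81.4% at 30 to 50% and 83.3% among the 24 introns at 50% or more.

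Intron 1 of LMF2 (chr22:50507036-50507581), a relative of the lipase maturation factor of the endoplasmic reticulum, had the largest rise among introns with at least 50 reads. It was retained at 88.0% after SNW1 RNAi and 57.4% after WBP11 RNAi, against 21.4% in the control, and at 63.2% in WBP11 auxin cells, against 42.2% in the auxin control. The change after SNW1 RNAi was 66.6 points (95% 55.7 to 74.6). All 3 depleted libraries were above both controls at this intron, with SNW1 RNAi highest. HIP1R (chr12:122857216-122858101), which links clathrin coats to actin, was retained at 84.9% after SNW1 RNAi and 35.2% after WBP11 RNAi, against 20.5% in the control, and at 51.4% in WBP11 auxin cells, against 22.6% in the auxin control. Its controls lay within 2.12 points of each other. PLEKHG5 (chr1:6467573-6467824) was retained in its last intron at 90.8% after SNW1 RNAi and 87.1% after WBP11 RNAi, against 31.1% in the control, and at 50.7% in WBP11 auxin cells, against 31.6% in the auxin control. Both siRNA libraries were far above the WBP11 auxin library here.

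STK11IP, a partner of the LKB1 kinase, was retained at 86.1% after SNW1 RNAi and 46.5% after WBP11 RNAi, against 27.4% in the control, and at 48.1% in WBP11 auxin cells, against 22.9% in the auxin control. DGKQ (chr4:960722-961048), a diacylglycerol kinase, was retained in its last intron at 84.4% after SNW1 RNAi and 35.7% after WBP11 RNAi, against 21.6% in the control, but at 42.9% in WBP11 auxin cells, against 51.2% in the auxin control. At DGKQ the controls themselves were 29.6 points apart, and the gap between the SNW1 change of 62.8 points and the WBP11 auxin change of -8.32 points was the widest among introns with at least 50 reads. ACTR1B, a dynactin subunit, was retained at 79.7% after SNW1 RNAi and 66.97% after WBP11 RNAi, against 21.3% in the control, and at 43.5% in WBP11 auxin cells, against 35.6% in the auxin control. The auxin change of 7.82 points at ACTR1B had an interval of -3.18 to 18.8.

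Falls after SNW1 RNAi were few. ZNF316, a zinc finger protein whose retained intron lies in the 5' UTR, was retained at 20.7% after SNW1 RNAi, against 36.3% in the control, and at 11.8% in WBP11 auxin cells, against 41.0% in the auxin control; it was not listed for WBP11 RNAi. PAXBP1, a nuclear partner of PAX transcription factors, was retained at 41.1% after SNW1 RNAi and 45.9% after WBP11 RNAi, against 55.8% in the control, and at 60.1% in WBP11 auxin cells, against 23.9% in the auxin control. RESF1, a retroelement silencing factor, was retained at 26.2% after SNW1 RNAi and 43.7% after WBP11 RNAi, against 37.5% in the control, and at 54.7% in WBP11 auxin cells, against 27.6% in the auxin control. ZNF316 fell in both comparisons, whereas PAXBP1 and RESF1 fell after SNW1 RNAi and rose after WBP11 auxin, and were the only introns to do so. The RESF1 interval after SNW1 RNAi, -27.5 to 5.81, includes 0, and with the listed spliced reads its change was -9.28 points. The next introns by fall and depth, in MARCHF6 (-9.47 points), MAPRE3 (-9.35) and WDR73 (-5.92), did not reach 10 points. Both measured mid-length introns of WDR73, a protein linked to microtubules, belong to the set, and the longer one fell, with 14.1% after SNW1 RNAi and 4.94% after WBP11 RNAi, against 30.6% in the control.

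After WBP11 auxin, 147 of 294 introns rose and 42 fell, which is 50% and 14.3%, beside 13.8% and 1.37% of all 21828 introns measured. The median change was 9.47 points, from -37.6 to 50.3, beside 1.45 points over all introns and 1.31 points in the comparison set, where 8.32% rose. Median retention went from 35.3% to 45.5% in the retained introns and from 1.61% to 2.78% in the comparison set. The auxin control median over all introns was 2.13%. With such different starting values, the sets are not ranked by sensitivity here either. Among the retained introns, the interval lay on one side of 0 for 115 rises and 33 falls. By length the share that rose was 52.5%, 50.3% and 47.5% in the same 3 classes. By the smaller control value it was 53.2% at 20 to 30%, 47.4% at 30 to 50% and 37.5% at 50% or more. The control values that set these classes also enter the changes, so no order over the classes is read in any comparison. An intron below 10% in its control cannot fall by 10 points, so falls can be counted only where retention was high to begin with.

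Intron 12 of SGSM3, a Rab GTPase-activating protein, showed the largest rise among introns with at least 50 reads. The 84 bp intron, printed above, was retained at 77.1% after SNW1 RNAi and 49.5% after WBP11 RNAi, against 25.6% in the control, and at 71.6% in WBP11 auxin cells, against 26.8% in the auxin control. Its change was 44.9 points (95% 37.0 to 51.8) after WBP11 auxin and 51.5 points (44.9 to 57.4) after SNW1 RNAi. The controls were 1.21 points apart, no warning was attached in any library, and all depleted libraries lay above both controls. HDAC10 (chr22:50248473-50248661), a polyamine deacetylase, behaved evenly across the depletions, with 64.9% after SNW1 RNAi and 62.9% after WBP11 RNAi, against 27.5% in the control, and 64.3% in WBP11 auxin cells, against 27.3% in the auxin control. Its 3 changes were 37.4, 35.4 and 37.0 points in that order.

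ANO9, of the anoctamin family of membrane channels and scramblases, was retained at 82.9% after SNW1 RNAi and 73.3% after WBP11 RNAi, against 39.6% in the control, and at 91.6% in WBP11 auxin cells, against 51.0% in the auxin control. LAMB2, the laminin beta-2 chain of basement membranes, was retained in intron 12 at 78.3% after SNW1 RNAi, against 25.4% in the control, and at 74.7% in WBP11 auxin cells, against 36.4% in the auxin control. Both rose by more than 35 points after SNW1 RNAi and after WBP11 auxin. TUBGCP6, a subunit of the gamma-tubulin ring complex that nucleates microtubules, was retained in intron 18 at 63.9% after SNW1 RNAi and 75.5% after WBP11 RNAi, against 39.5% in the control, and at 59.3% in WBP11 auxin cells, against 22.3% in the auxin control. MAN2C1, a cytosolic alpha-mannosidase, was retained in intron 16 at 84.5% after SNW1 RNAi and 79.8% after WBP11 RNAi, against 50.4% in the control, and at 67.7% in WBP11 auxin cells, against 30.1% in the auxin control. In TUBGCP6 and MAN2C1 the auxin control was 17.2 and 20.2 points below the other control, yet each depleted library stood above both.

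The falls after WBP11 auxin included introns that SNW1 RNAi left in place. PHF8 (chrX:53985228-53985815), a histone demethylase, was retained at 37.6% after SNW1 RNAi and 14.6% after WBP11 RNAi, against 39.4% in the control, and at 9.97% in WBP11 auxin cells, against 33.4% in the auxin control. TAF1C, a subunit of the RNA polymerase I promoter selectivity factor, was retained in intron 11 at 65.3% after SNW1 RNAi and 35.5% after WBP11 RNAi, against 55.3% in the control, and at 34.6% in WBP11 auxin cells, against 55.2% in the auxin control. The WBP11 changes in TAF1C were -20.6 points (95% -30.6 to -10.03) with auxin and -19.7 points (-31.2 to -7.28) with siRNA, while the SNW1 change was 10.1 points (-1.41 to 21.2). SMPD4BP, a non-coding transcript, gave 65.1% after SNW1 RNAi and 23.5% after WBP11 RNAi, against 61.4% in the control, and 20.6% in WBP11 auxin cells, against 53.8% in the auxin control, but it is a pseudogene of SMPD4 and its reads may be shared with that gene, so its values are uncertain. GIGYF1, a translational repressor, was retained at 56.8% after SNW1 RNAi, against 41.5% in the control, and at 34.1% in WBP11 auxin cells, against 60.1% in the auxin control. GIGYF1 was thus among the 24 introns that rose after SNW1 RNAi and fell after WBP11 auxin.

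After WBP11 RNAi, 145 of the 266 introns measured there rose and 37 fell, which is 54.5% and 13.9%, beside 9.07% and 1.69% of all 16068 introns measured. The other 28 introns could not be counted, 25 because the table did not list them and 3 because they missed the depth minimum. The median change was 11.3 points, from -41.0 to 59.6, beside 0.756 points over all introns and 0.909 points in the comparison set, where 3.29% rose. Median retention went from 29.7% to 43.8% in the retained introns and from 1.35% to 2.04% in the comparison set. The control median over all introns was 2.20%. For the same reason as above, the sets are not ranked by sensitivity. Among the retained introns, the interval lay on one side of 0 for 114 rises and 18 falls. The share that rose was 53.6% at 81 to 150 bp, 63.0% above 150 and up to 500 bp and 38.9% above 500 bp, where 23.6% fell. By the smaller control value it was 53.8%, 59.1% and 40.9%, with 22 introns in the highest class.

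PARP10, a mono-ADP-ribosyltransferase with a part in DNA damage tolerance, had the largest rise among introns with at least 50 reads. Its intron 7 was retained at 82.2% after SNW1 RNAi and 82.3% after WBP11 RNAi, against 22.7% in the control, and at 76.6% in WBP11 auxin cells, against 47.4% in the auxin control. The changes were 59.5, 59.6 and 29.3 points, and the controls were 24.7 points apart. HGH1 was retained at 54.6% after SNW1 RNAi and 79.5% after WBP11 RNAi, against 28.1% in the control, and at 45.5% in WBP11 auxin cells, against 28.3% in the auxin control. Here WBP11 RNAi was the highest library, although with an intron depth plus spliced reads of 29.2 it was also the shallowest at this intron.

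Among the falls after WBP11 RNAi, GOLGA1 (chr9:124921241-124921722), a golgin of the trans-Golgi, was retained at 47.7% after SNW1 RNAi and 12.3% after WBP11 RNAi, against 48.2% in the control, and at 18.2% in WBP11 auxin cells, against 25.3% in the auxin control. ACAP3 (chr1:1298680-1299344), a GTPase-activating protein for Arf, was retained at 37.8% after SNW1 RNAi and 13.1% after WBP11 RNAi, against 37.9% in the control, and at 16.1% in WBP11 auxin cells, against 36.6% in the auxin control. EDC4, the scaffold of the mRNA decapping complex, was retained in intron 22 at 45.5% after SNW1 RNAi and 25.6% after WBP11 RNAi, against 45.8% in the control, and at 36.3% in WBP11 auxin cells, against 41.0% in the auxin control. After SNW1 RNAi all 3 lay within 1 point of the control. TAF1C intron 7, the other intron that opens with the minor donor letters, was retained at 30.1% after SNW1 RNAi and 11.7% after WBP11 RNAi, against 23.0% in the control, and at 17.8% in WBP11 auxin cells, against 30.6% in the auxin control. Both introns with these letters were therefore lower after WBP11 RNAi by over 10 points and moved by under 10 points after SNW1 RNAi; they were picked for their letters after the values were known.

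**Figure D3:**
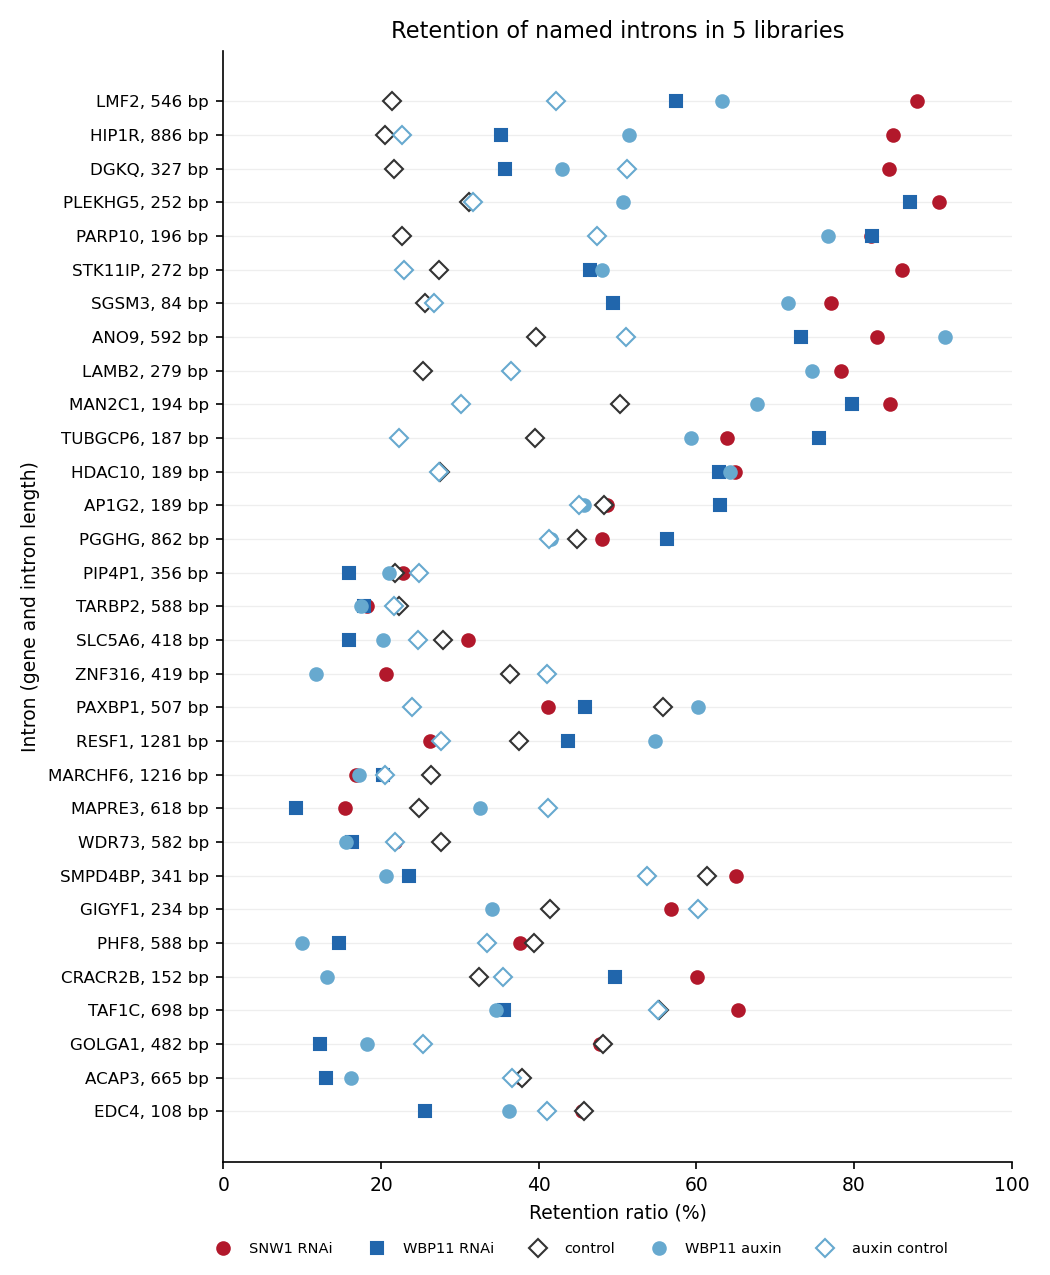
Retention ratio in percent (horizontal axis) of named introns (vertical axis, gene and intron length) after SNW1 RNAi (red circles), WBP11 RNAi (blue squares) and in the control (black diamonds), and in WBP11 auxin cells (light blue circles) and the auxin control (light blue diamonds). In the upper rows, SGSM3 at 77.1%, 49.5% and 71.6% against 25.6% and 26.8% has every depleted library to the right of both controls. DGKQ, also an upper row, has both WBP11 libraries to the left of the auxin control. In the lower rows, PHF8 and ACAP3 have both WBP11 libraries to the left of both controls. PAXBP1 and RESF1, also lower rows, have WBP11 auxin to the right of both controls.

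The depletions were set side by side over the same introns. SNW1 RNAi and WBP11 auxin have separate controls: 126 introns rose in both comparisons, 78 rose after SNW1 RNAi and moved by under 10 points after WBP11 auxin, and 24 rose after SNW1 RNAi and fell after WBP11 auxin. A further 19 rose after WBP11 auxin alone, 14 fell after WBP11 auxin alone, 3 fell after SNW1 RNAi alone, 4 fell in both, 2 fell after SNW1 RNAi and rose after WBP11 auxin, and 24 moved by under 10 points in each. The 126 were 55.3% of the 228 rises after SNW1 RNAi and 85.7% of the 147 rises after WBP11 auxin, beside the 50% and 77.6% of all members that rose after WBP11 auxin and after SNW1 RNAi. Of all members, 3.06% fell after SNW1 RNAi and 14.3% after WBP11 auxin. The 24 that went opposite ways had a median length of 220.5 bp, and those that fell after WBP11 auxin alone a median of 696 bp. SNW1 RNAi and WBP11 RNAi share the control library, so no overlap is drawn between them.

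The 2 ways of lowering WBP11 also have separate controls. Of the 266 introns, 88 rose in both WBP11 comparisons, which is 60.7% of the 145 rises after WBP11 RNAi and 68.8% of the 128 rises after WBP11 auxin among these introns, while over all 266 introns 48.1% rose after WBP11 auxin and 54.5% after WBP11 RNAi. In both, 13 fell, PHF8, ACAP3 and TAF1C introns 11 and 7 among them. Another 11 rose after WBP11 RNAi and fell after WBP11 auxin, and 7 did the opposite. For these counts, 13.9% of the 266 introns fell after WBP11 RNAi, and 14.3% of all 294 fell after WBP11 auxin. Across the 266 introns the 2 WBP11 changes had a Pearson correlation of 0.468 and a Spearman rank correlation of 0.479, a description over introns that share libraries and, in part, genes.

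**Figure D4:**
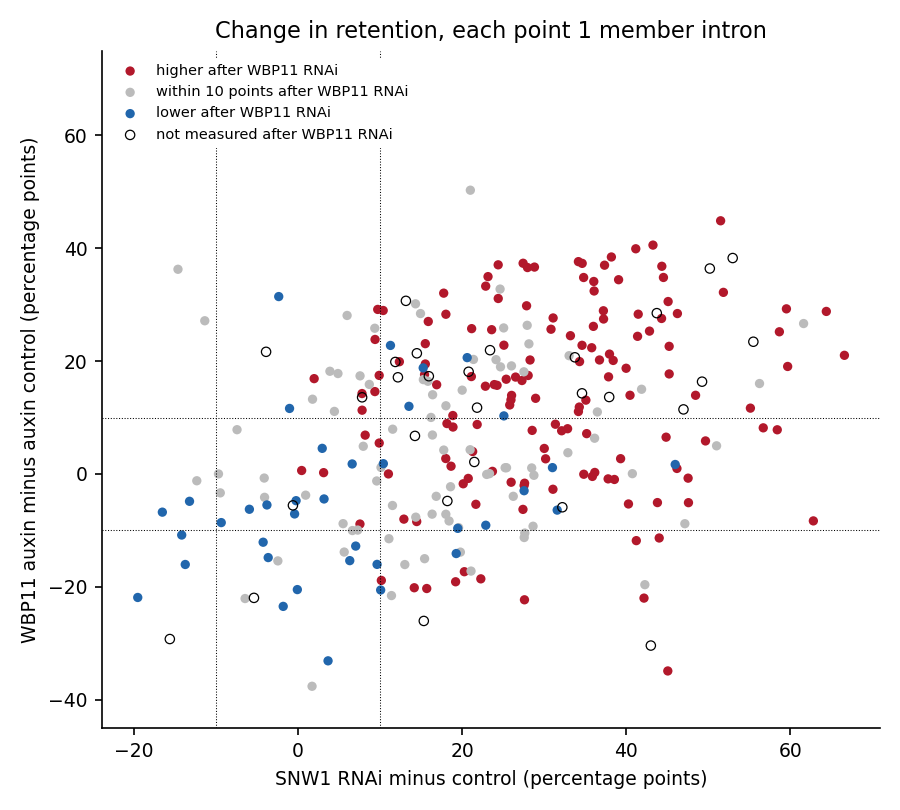
Change in retention after WBP11 auxin minus the auxin control (vertical axis, percentage points) against SNW1 RNAi minus the control (horizontal axis, percentage points), 1 point an intron, coloured by the change after WBP11 RNAi, with dotted lines at 10 points in either direction. The upper right field holds 126 introns, and the field right of both vertical lines and below the lower horizontal line holds 24.

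The ratio has an intron part and a spliced part. Each was scaled to the spliced reads of its library at the introns listed in both the SNW1 RNAi and the WBP11 auxin comparison. For WBP11 RNAi and its control, these introns had to be listed in that comparison as well. After SNW1 RNAi the retained introns had a median depth of 1.67 times and median spliced reads of 0.609 times those of the control. In WBP11 auxin cells the values were 1.11 and 0.746 times those of the auxin control, and after WBP11 RNAi 0.885 and 0.568 times those of the control. In the comparison set depth was 3.91, 1.82 and 1.48 times and spliced reads 1.09, 1.06 and 1.04 times, in the same order. The control reads under these ratios are the ones that placed each intron in its set, and introns with 0 depth in the control had no depth ratio. The sets are therefore not compared on these ratios. After WBP11 RNAi the introns that rose had a median depth of 1.07 times control and spliced reads of 0.390 times control. Fewer transcripts of a gene and fewer spliced ones among them cannot be told apart from these parts alone, and neither can less RNA per cell and fewer cells.

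**Figure D5:**
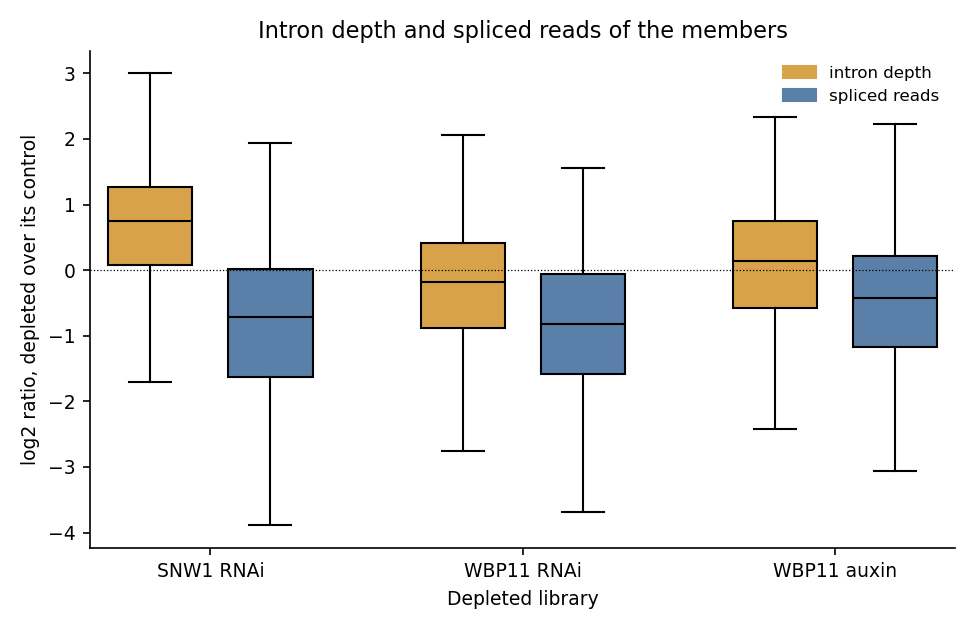
Log2 ratio of the depleted library over its control (vertical axis) for intron depth (orange) and spliced reads (blue) of the retained introns, after SNW1 RNAi, WBP11 RNAi and WBP11 auxin (horizontal axis). Both parts are relative to the spliced reads at the introns listed in both the SNW1 RNAi and the WBP11 auxin comparison, and for WBP11 RNAi also in its own. Boxes span the quartiles with the median as a line and whiskers reach 1.5 box lengths at most; spliced reads lie below 0 for 74.5%, 77.1% and 67.01% of introns in that order, and depth lies above 0 for 77.9%, 43.99% and 55.8%.

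Single introns differed in these parts. SGSM3 intron 12 had 2.91 times the control's depth and 0.298 times its spliced reads after SNW1 RNAi, and 2.52 and 0.364 times those of the auxin control in WBP11 auxin cells. After WBP11 RNAi its depth was 1.06 times control and its spliced reads 0.371 times control. PIP4P1 had 3.05 times the control's depth and 2.91 times its spliced reads after SNW1 RNAi, so that both parts grew by about the same factor, and retention was 22.8% against 21.8%. PHF8 had 0.399 times the depth and 1.81 times the spliced reads of the auxin control in WBP11 auxin cells, the reverse of the SGSM3 pattern.

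Of the 233 genes, 42 held 2 or more retained introns, 103 introns in all, and 191 held 1. All members of a gene rose after SNW1 RNAi in 28 of the 42 genes and after WBP11 auxin in 12, and 6 genes had a rise and a fall after WBP11 auxin. Over all members, 77.6% rose after SNW1 RNAi, and 50% rose and 14.3% fell after WBP11 auxin. No agreement within genes is read from these counts. NDOR1, an electron donor for cytosolic iron-sulfur cluster assembly, held most, with 5 of its 7 measured mid-length introns. The fullest of them, intron 9, was retained at 91.4% after SNW1 RNAi and 83.3% after WBP11 RNAi, against 45.2% in the control, and at 93.9% in WBP11 auxin cells, against 65.4% in the auxin control. Intron 10 was retained at 72.2% after SNW1 RNAi and 73.8% after WBP11 RNAi, against 27.6% in the control, and at 76.8% in WBP11 auxin cells, against 42.0% in the auxin control. Intron 1 of the same gene stayed at 43.1% after SNW1 RNAi and 29.997% after WBP11 RNAi, against 35.8% in the control, and at 19.7% in WBP11 auxin cells, against 29.6% in the auxin control. Introns 9 and 10 of NDOR1 thus rose in every comparison, while intron 1 moved by under 10 points in each.

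CRACR2B, an EF-hand protein that regulates store-operated calcium channels, held 4 of its 5 measured introns. All 4 rose after SNW1 RNAi, by 15.7 to 45.2 points, and all 4 rose after WBP11 RNAi. After WBP11 auxin the first of them rose, with 50.6% in WBP11 auxin cells against 32.8% in the auxin control, and the next 3 fell. The 152 bp intron printed above was retained at 60.1% after SNW1 RNAi and 49.7% after WBP11 RNAi, against 32.5% in the control, but at 13.1% in WBP11 auxin cells, against 35.4% in the auxin control. For the intron that starts at 831033 the fall of 20.3 points rests on spliced reads beyond those listed, and with the listed spliced reads it is a rise of 16.0 points. WBP11 RNAi and WBP11 auxin therefore lay on opposite sides of their controls at the 152 bp intron and at the 283 bp intron before it, which moved by -11.8 points after WBP11 auxin.

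ACADVL, the very long chain acyl-CoA dehydrogenase of mitochondria, held 3 members. Its GC-AG intron 8 was retained at 67.4% after SNW1 RNAi and 57.1% after WBP11 RNAi, against 39.9% in the control, and at 50.8% in WBP11 auxin cells, against 52.9% in the auxin control. The SNW1 change was 27.6 points (95% 23.7 to 31.2) and the auxin change -2.04 points (-6.74 to 2.67). Intron 10 was retained at 64.9% after SNW1 RNAi and 49.8% after WBP11 RNAi, against 53.8% in the control, and at 54.6% in WBP11 auxin cells, against 66.1% in the auxin control. SNW1 RNAi was the highest library at intron 8, and at intron 10 it lay close to the auxin control. AP1G2, a subunit of the AP-1 clathrin adaptor, held an intron of each kind: intron 16 was retained at 77.4% after SNW1 RNAi and 44.1% after WBP11 RNAi, against 29.8% in the control, and at 19.9% in WBP11 auxin cells, against 25.02% in the auxin control. AP1G2 intron 10 was retained at 48.7% after SNW1 RNAi and 63.0% after WBP11 RNAi, against 48.3% in the control, and at 45.7% in WBP11 auxin cells, against 45.1% in the auxin control. Intron 10 moved by 0.446 points with SNW1 RNAi and by 0.606 points with WBP11 auxin, or 7.11 points with the listed spliced reads, while intron 16 rose by 47.6 points with SNW1 RNAi in the same gene. PLXNA3, a semaphorin receptor, held 4, which rose by 18.2 to 43.7 points after SNW1 RNAi and moved by -0.877 to 28.5 points after WBP11 auxin.

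A few introns hardly moved after SNW1 RNAi and after WBP11 auxin. PIP4P1, a phosphoinositide phosphatase of lysosomes, was retained at 22.8% after SNW1 RNAi and 16.0% after WBP11 RNAi, against 21.8% in the control, and at 21.0% in WBP11 auxin cells, against 24.8% in the auxin control. TARBP2, the partner of Dicer, was retained at 18.2% after SNW1 RNAi and 17.9% after WBP11 RNAi, against 22.3% in the control, and at 17.5% in WBP11 auxin cells, against 21.7% in the auxin control. All 5 libraries lay between 15 and 25% at both introns. SLC5A6, the vitamin transporter, and PGGHG, a glucosidase of hydroxylysine-linked sugars, moved by 3.17 and 3.12 points after SNW1 RNAi and by -4.44 and 0.226 points after WBP11 auxin. After WBP11 RNAi, however, PGGHG rose by 11.4 points. SLC5A6 had 0.728 times the control's depth and 1.38 times its spliced reads in that library.

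The most retained introns of the controls could still gain. CENPT, a kinetochore protein, was retained in intron 11 at 94.5% after SNW1 RNAi and 93.6% after WBP11 RNAi, against 75.6% in the control, and at 90.4% in WBP11 auxin cells, against 80.1% in the auxin control. FBXL6, an F-box protein, was retained in its first intron at 98.0% after SNW1 RNAi and 91.0% after WBP11 RNAi, against 62.2% in the control, and at 95.2% in WBP11 auxin cells, against 72.9% in the auxin control. CLASRP, an SR-related protein that binds a CLK kinase, was retained in intron 12 at 72.3% after SNW1 RNAi and 60.9% after WBP11 RNAi, against 55.9% in the control, and at 70.1% in WBP11 auxin cells, against 56.0% in the auxin control. After SNW1 RNAi 6 listed spliced reads were left at the CENPT intron, against 25 in the control, and 3 at the FBXL6 intron, against 40. APBB3, an adaptor of the amyloid precursor protein, went the other way, with 81.5% after SNW1 RNAi and 75.4% after WBP11 RNAi, against 85.7% in the control, and 68.3% in WBP11 auxin cells, against 80.4% in the auxin control.

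The controls differed from each other at many of these introns. Auxin control minus control, 89 introns were higher and 29 lower by at least 10 points, which is 30.3% and 9.86%. The median difference was 4.10 points. Of 13297 introns listed in both tables and past the depth minimum in both controls, 5.24% were higher and 0.827% lower. Both control values chose the retained introns, and an intron under 5% in both controls cannot differ by 10 points. The shares of the retained introns and of the 13297 are therefore not compared. MON1B, of the exchange factor for Rab7, was retained at 61.9% in the auxin control, against 23.8% in the control, and KLHL17, a brain actin-binding kelch protein, at 62.9% against 32.4%. PAXBP1, described above, was lower in the auxin control by 31.9 points. Just inside the 20% limit, CEP95 stood at 21.9% in the auxin control and 20.2% in the control, PGAP6 at 36.7% and 20.2%, and NFRKB at 20.1% and 31.0%. Just outside it, CHKB stood at 46.7% in the auxin control and 19.7% in the control, and RTKN at 31.0% and 19.6%.

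Members per list were counted beside the share over all 9832 measured mid-length introns, 2.99 in 100, and nothing is read from the counts of single lists. In lists of genes known for regulated retention, among SR proteins and the CLK kinases 0 of 25 measured introns were members, among O-GlcNAc enzymes 0 of 3, among aminoacyl-tRNA synthetases 0 of 46, among snRNP and spliceosome proteins 1 of 77 (PRPF40B), and among RNA-binding and hnRNP proteins 1 of 60 (THOC1). THOC1, of the mRNA export complex THO, was retained at 42.4% after SNW1 RNAi and 24.6% after WBP11 RNAi, against 26.0% in the control, and at 34.3% in WBP11 auxin cells, against 27.4% in the auxin control. PRPF40B, a homologue of a yeast splicing factor, was retained at 56.1% after SNW1 RNAi and 62.4% after WBP11 RNAi, against 31.0% in the control, and at 65.3% in WBP11 auxin cells, against 42.5% in the auxin control. It rose in all 3 comparisons and THOC1 in the SNW1 comparison alone. The limit of 81 bp and the depth minimum in 4 libraries decide which introns of a list could enter.

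DNA repair genes held 10 members of 159 measured introns: EME1, EME2, ERCC6, FANCL, MLH3, MUS81, MUTYH, PARP10, POLL and RECQL4. After SNW1 RNAi 8 of 10 rose, with a list median of 19.8 points, beside 77.6% and 22.9 points of all members. After WBP11 RNAi 5 of the 8 measured rose, and after WBP11 auxin 3 of 10 rose and 2 fell, beside 54.5% and 50% rises over all members. MUS81, the nuclease subunit that cuts branched DNA, was retained at 55.1% after SNW1 RNAi and 44.8% after WBP11 RNAi, against 24.04% in the control, and at 31.3% in WBP11 auxin cells, against 34.1% in the auxin control. RECQL4, a helicase, was retained at 75.5% after SNW1 RNAi and 39.9% after WBP11 RNAi, against 27.0% in the control, and at 41.3% in WBP11 auxin cells, against 27.3% in the auxin control. Both rose after either siRNA, and RECQL4 after auxin too, by 13.9 points and by 21.3 points with the listed spliced reads. FANCL, the ubiquitin ligase of the Fanconi anaemia pathway, was retained in an 81 bp intron at 59.1% in WBP11 auxin cells, against 31.0% in the auxin control, while the changes after SNW1 RNAi and WBP11 RNAi were 5.98 and 5.89 points.

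Cell cycle genes held 7 members of 154 introns, in ANAPC2, CDK10, CDK11A, CHTF18 and E2F4, and 7 rose after SNW1 RNAi, 3 after WBP11 RNAi and 2 after WBP11 auxin, where 2 fell. The list medians were 23.0, 5.93 and 1.06 points in that order. Over all members 77.6%, 54.5% and 50% rose, with medians of 22.9, 11.3 and 9.47 points. CDK10, a kinase that partners cyclin M, was retained at 69.8% after SNW1 RNAi and 65.0% after WBP11 RNAi, against 48.7% in the control, and at 64.3% in WBP11 auxin cells, against 47.1% in the auxin control. E2F4, a repressor of cell cycle genes, was retained in its 138 bp intron 2 at 43.3% after SNW1 RNAi and 26.2% after WBP11 RNAi, against 20.3% in the control, and at 26.0% in WBP11 auxin cells, against 26.1% in the auxin control. E2F4 rose after SNW1 RNAi, where its depth was 3.08 times and its spliced reads 1.03 times those of the control, and moved by 5.93 points after WBP11 RNAi and by -0.0892 points after WBP11 auxin. CHTF18, the clamp loader subunit for sister chromatid cohesion, was retained in intron 8 at 69.2% after SNW1 RNAi and 62.2% after WBP11 RNAi, against 39.1% in the control, and at 52.2% in WBP11 auxin cells, against 49.5% in the auxin control. CDK11A has a near-identical neighbour, CDK11B, with which reads may be shared.

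Centrosome genes held 4 members of 126 introns, CEP95, PCNT, SFI1 and TUBGCP6, and all 4 rose after SNW1 RNAi, all 4 after WBP11 RNAi and 3 after WBP11 auxin, with medians of 21.5, 30.4 and 20.3 points, beside the 77.6%, 54.5% and 50% that rose over all members and their medians of 22.9, 11.3 and 9.47 points. PCNT, the pericentriolar scaffold pericentrin, was retained at 62.5% after SNW1 RNAi and 67.8% after WBP11 RNAi, against 43.8% in the control, and at 50.2% in WBP11 auxin cells, against 48.8% in the auxin control. SFI1, a centrin-binding protein of the centriole, was retained at 42.2% after SNW1 RNAi and 55.4% after WBP11 RNAi, against 24.2% in the control, and at 71.0% in WBP11 auxin cells, against 42.7% in the auxin control. CEP95 was retained at 46.0% after SNW1 RNAi and 49.8% after WBP11 RNAi, against 20.2% in the control, and at 34.2% in WBP11 auxin cells, against 21.9% in the auxin control. WBP11 RNAi exceeded SNW1 RNAi in retention at each of the 4, which was a description of 4 introns and not tested.

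Laminin and basement membrane genes held 6 members of 93 introns in COL7A1, LAMA5 and LAMB2. All 6 rose after SNW1 RNAi, 3 of 5 measured after WBP11 RNAi, and 3 after WBP11 auxin, where 1 fell. The medians were 28.6, 13.6 and 12.3 points, beside 22.9, 11.3 and 9.47 points over all members, of which 77.6%, 54.5% and 50% rose. LAMB2 intron 28 was retained at 81.7% after SNW1 RNAi and 70.0% after WBP11 RNAi, against 29.8% in the control, and at 81.3% in WBP11 auxin cells, against 49.1% in the auxin control. LAMA5 intron 63 was retained at 43.0% after SNW1 RNAi and 37.2% after WBP11 RNAi, against 28.7% in the control, and at 41.8% in WBP11 auxin cells, against 49.4% in the auxin control. The laminin chains thus differed, with LAMB2 far above both controls and LAMA5 in WBP11 auxin cells below the auxin control. Lysosome and autophagy genes held 4 members of 121 introns, ARSA, ATG2A, ATG4B and IDUA, and all 4 rose after SNW1 RNAi, 2 after WBP11 RNAi and 2 after WBP11 auxin, with medians of 21.4, 4.65 and 10.3 points. ATG4B, the protease that primes autophagy proteins, was retained in its last intron at 42.6% after SNW1 RNAi and 17.6% after WBP11 RNAi, against 25.8% in the control, and at 23.0% in WBP11 auxin cells, against 27.0% in the auxin control. IDUA, a lysosomal iduronidase, had the highest rise after WBP11 auxin at any depth, 83.8% against 33.5% in the auxin control. Its intron depth plus spliced reads stood at 36.9 and 42.1. ABC transporters held 2 members of 60 introns, both in ABCC3, and chromatin enzymes 2 of 181, in HDAC6 and HDAC10. HDAC6, a tubulin deacetylase, was retained at 67.9% after SNW1 RNAi, against 24.9% in the control, and at 17.6% in WBP11 auxin cells, against 48.0% in the auxin control, so that the changes had opposite signs where those of HDAC10 did not.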

How the data were processed

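The authors deposited 3 IRFinder comparison tables, each of a depleted library against its control, made from STAR alignments to hg38 per the file headers. RSEM and bedtools also appear in the submitters' processing notes, with no version. Retention is deposited as a fraction, intron depth as a coverage signal over the measured bases, and spliced reads as a count per intron, none scaled between libraries. Deposited p-values were not used. The control columns of the RNAi tables were identical, so that library is shared. In 177 of the 294 introns the deposited ratio used more spliced reads than listed in at least 1 library; intervals (Wilson, Newcombe, 95%) take the reads that the ratio implies and cover counting error only. With 1 library a group, no test was made, and p-values were not computed.

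Introns were matched on coordinates (hg38, counted from 1) and to GENCODE release 29, all 294 exactly, with Python 3.11.15, pandas 2.3.3, numpy 2.4.6 and scipy 1.17.1; the calls were tested on simulated data. The size rule was 10 points and the depth minimum 10. Named introns have at least 50 reads in the 4 libraries. They are the 6 with the largest rise and fall after SNW1 RNAi and WBP11 auxin, and the 5 for WBP11 RNAi. Also named are the 5 most stable over SNW1 RNAi and WBP11 auxin, the 5 most retained, and the 5 most different between controls or comparisons. The genes with most members, up to 3 introns per gene list (12 lists), and the introns nearest the 20% limit complete them. Other named introns spell out a count or were chosen after their values were seen. The members, lists and rules were chosen with earlier results of these data known. Alternatives were other size rules, an odds ratio, stricter depth, warnings, retention limits, 1 intron per gene, a pseudocount, and, after seeing the data, the other control library, agreement of the controls, intervals and listed spliced reads.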

Additional observations from a re-analysis of the deposited data

Results flagged for a closer look

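Some introns moved by at least 10 points in opposite directions when WBP11 was lowered by siRNA and by auxin, each against its own control, and the difference between the changes was not tested. WBP11 RNAi was higher and WBP11 auxin lower at 3 CRACR2B introns: the one starting at 830338 (36.1 and -11.8 points, a difference of 47.9), the one at 831033 (23.2 and -20.3, a difference of 43.5) and the one at 830714 (17.2 and -22.3, a difference of 39.5). For the intron at 831033 the auxin change is 16.0 points with the listed spliced reads, which ends the contrast. The same direction held at CHTF18 intron 9 (18.7 and -18.6, a difference of 37.3) and at P3H1, a collagen prolyl hydroxylase (10.1 and -20.2, a difference of 30.3).

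WBP11 RNAi was lower and WBP11 auxin higher at the last NDOR1 intron (-12.9 and 22.8, a difference of -35.7), BRAT1, a regulator of the DNA damage kinase ATM (-10.5 and 18.8, a difference of -29.3), TPCN1, an endolysosomal cation channel (-10.7 and 12.0, a difference of -22.7) and SLC29A2, a nucleoside transporter (-10.6 and 11.6, a difference of -22.2). Each library is 1 sample, and the auxin pair also differs in cell line.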

How the results depend on the processing

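No paired analysis was possible because each group has 1 library, all numbered 1. Counts that use fewer introns fell with the number used. Without warnings in either library, 111 of 146 introns rose and 4 fell after SNW1 RNAi, 73 of 142 and 17 after WBP11 auxin, and 74 of 130 and 16 after WBP11 RNAi. With a control limit of 30%, 99 and 2, 55 and 22, and 61 and 14 introns rose and fell in that order. Where the controls lay within 10 points of each other, 129 of 176 rose after SNW1 RNAi, 87 rose and 24 fell after WBP11 auxin, and 79 of 160 rose after WBP11 RNAi. A size rule of 20 points left 0 falls after SNW1 RNAi, 82 rises and 17 falls after WBP11 auxin, 79 and 11 after WBP11 RNAi, and 22 and 7 between the controls. A size rule of 5 points gave 16 falls after SNW1 RNAi, 71 after WBP11 auxin, and 137 rises and 56 falls between the controls. A depth of 30 left 5 falls after SNW1 RNAi. Only 3 falls after SNW1 RNAi and 18 after WBP11 RNAi had an interval below 0. Against the other control library, the median change was 18.5 points for SNW1 RNAi, 13.4 for WBP11 auxin and 6.25 for WBP11 RNAi. With a pseudocount of 1 on listed reads, the WBP11 auxin change of the CRACR2B intron at 831033 was 15.5 points, and with listed spliced reads 16.0, in place of -20.3. Listed spliced reads also moved its WBP11 RNAi change to 35.99 points, in place of 23.2. The other 49 values kept their sign and their counts lay within 1.5 times those given, such as 168 rises after SNW1 RNAi at 20 points, 53 falls after WBP11 RNAi at 5 points and 113 rises after WBP11 RNAi against the other control.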
